A study of Mus musculus with 6 samples.

Results

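The genes described here are 32 genes used by neurons and by cells of the neural crest, measured in the pancreas of E13.5 mouse embryos. They were chosen by name, with earlier results of these data known. All 32 were found among the 19938 genes tested as array rows that carry exactly 1 gene symbol. Where a gene had several such rows, which among the 32 was the case for *Stmn3* and *Ina*, the brightest row on average was used. By role, 7 are genes of crest cells and glia (*Sox10*, *Foxd3*, *Ednrb*, *Edn3*, *Fabp7*, *S100b* and *Ngfr*), 6 are genes of autonomic neurons (*Phox2a*, *Dbh*, *Th*, *Prph*, *Cartpt* and *Chrna3*) and 19 are pan-neuronal genes, many of which hormone-producing cells share.

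Each sample was RNA pooled from 3 whole pancreata, with 3 control pools, labelled wild type, and 3 pools of *Pdx1-Cre; Ctnnb1tm1Mmt/+* pancreata (mutant pools), all at E13.5 and hybridized to 6 Affymetrix Mouse Gene 1.0 ST arrays, a pool to each. In the mutant embryos a Cre recombinase under the *Pdx1* promoter cuts exon 3 out of 1 copy of *Ctnnb1* in the pancreatic and duodenal epithelium, so that the β-catenin made from it is not degraded and Wnt target genes stay on. The alleles carried by the control embryos are given no further than wild type. The promoter confines Cre to Pdx1-expressing cells, and the dissected organ also holds mesenchyme, vessels and nerves. The study describes some pancreatic cells at birth that appeared to have escaped excision. At E13.5 it likewise describes mutant cells that kept normal levels of pancreatic transcription factors and showed no nuclear β-catenin.

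Neural crest cells leave the dorsal neural tube, migrate into the gut and the tissue around the pancreas, and become autonomic neurons and the glia that wrap them. Sox10 keeps crest cells and glia in their state, Phox2a and its paralog switch on the noradrenergic programme, and endothelin 3 acting on the endothelin B receptor keeps crest cells migrating and undifferentiated. Endocrine cells of the pancreas arise from the epithelium, not from the crest, but under Neurog3 and Neurod1 they switch on many genes of neurons, among them cytoskeletal genes and the machinery of regulated secretion. In whole tissue a lower value can come from fewer cells of a type, from more cells of other types or from less RNA of the gene per cell. These cannot be told apart.

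Values are the log2 expression values as deposited, and a change is the mutant mean minus the control mean, with limma's standard error (SE) and a Benjamini-Hochberg adjusted p over all 19938 genes. A gene is said to have risen or fallen where that p was under 0.05. Since each gene is read by its own probes, values are compared between pools and not between genes.

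Of the 32 genes, 20 fell and 2 rose in mutant pools and 10 did not pass the limma test. Over all genes tested, 7.53% fell and 6.59% rose. As the 32 were chosen with earlier results known, shares over all genes are given for scale and the difference was not tested. The median change of the 32 was -0.57, with 28 of them below 0, while the median of all genes tested was 0.03. Crest and glia genes went both ways, with 3 fallen and 1 risen of 7. With any 1 array left out, 1 to 2 of these genes fell (1 without control pool 3 or mutant pool 1). Their median change, -0.15, is the value of *S100b* and was not stable, at -0.26 without mutant pool 1, -0.055 without mutant pool 3 and -0.43 over the 5 of the 7 that lay above the median level of all genes. Autonomic neuron genes had a median of -0.86 with 4 of 6 fallen, and pan-neuronal genes a median of -0.57 with 13 of 19 fallen and 1 risen. The differences between these 3 medians were not tested.

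**Figure D1:**
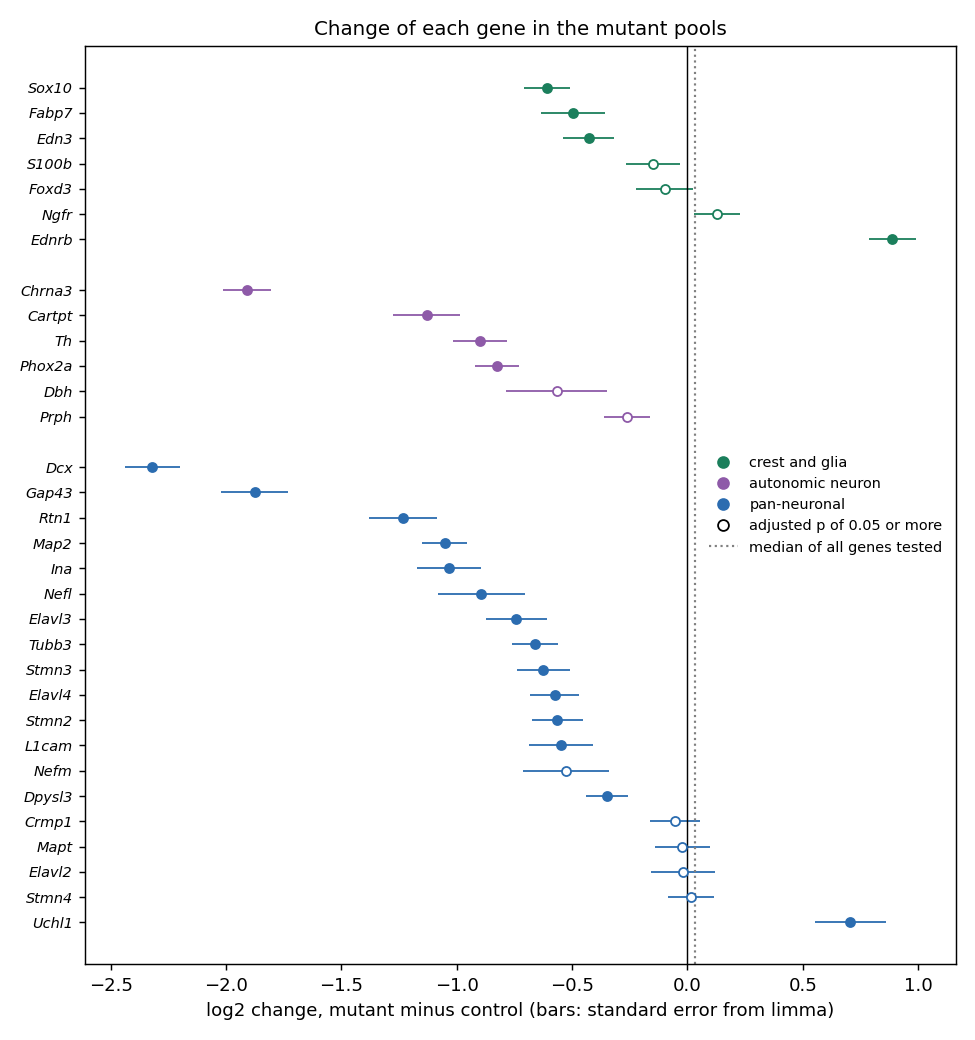
Change of each of the 32 genes in mutant pools, as mutant minus control on the log2 scale with bars of 1 SE from limma and 3 pools per genotype, grouped by role and marked by whether the adjusted p was under 0.05. *Dcx* lies farthest to the left at -2.32, and *Ednrb* and *Uchl1* are the genes that rose.

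At least 2-fold lower were 7 of the 32 genes, *Dcx*, *Chrna3*, *Gap43*, *Rtn1*, *Cartpt*, *Map2* and *Ina*, where 2.09% of all genes fell that far. None of the 7 is a gene of the crest and glia group, in which changes ran from -0.61 to 0.89. The pools of the genotypes did not overlap in 23 of the 32 genes, with the mutant pools below in 21 and above in 2, while over all genes they were apart in 30.9%, below in 13.9% and above in 16.9%. At an unadjusted p under 0.05 from limma, 23 of the 32 were lower, against 12% of all genes, and the genes added were *Dbh*, *Prph* and *Nefm*.

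As to the crest and glia genes, *Sox10*, the transcription factor that marks migrating crest cells and their glia, fell. It stood at 7.66, 7.69 and 7.42 in control pools and at 6.97, 7.02 and 6.95 in mutant pools. Every mutant pool lay below every control pool, and the mutant pools lay close together. The change was -0.61 (SE 0.10, adjusted p = 0.00239 from limma), 1.53-fold lower.

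*Foxd3*, a transcription factor of the same cells that acts ahead of differentiation, read 6.78, 6.55 and 6.32 in control pools and 6.47, 6.54 and 6.35 in mutant pools. The genotypes overlapped, and the change of -0.10 had a 95% interval from -0.38 to 0.18 (adjusted p = 0.703 from limma). *S100b*, a calcium-binding protein of mature glia, had values of 4.73 to 5.14 over all 6 pools and a change of -0.15 with an interval from -0.41 to 0.11. *Ngfr*, the low-affinity neurotrophin receptor of crest cells and their derivatives, had values of 8.46 to 8.76 and a change of 0.13 with an interval from -0.09 to 0.35. No detection call accompanies the values, so for *Foxd3* and *S100b*, both defining markers, it cannot be told whether the probes read transcript above background. The same limit holds for dim genes that passed the test. Control means were 6.35 for *Tubb3*, 6.36 for *Elavl4* and 4.89 for *Cdh19*, which fell. Among genes that rose, control means were 5.20 for *Pax3*, 5.87 for *Tfap2a*, 5.63 for *Ntrk3* and 5.85 for *Slc5a7*. They were 6.55 for *Foxd3* and 5.06 for *S100b*.

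The ligand and the receptor of the endothelin pair moved in opposite directions. *Edn3*, the ligand, stood at 8.75, 8.36 and 8.61 in control pools and at 8.14, 8.20 and 8.11 in mutant pools. *Ednrb*, the receptor, stood at 9.04, 8.93 and 9.02 in control pools and at 9.90, 9.73 and 10.02 in mutant pools. For both genes the pools of the genotypes were apart. *Ednrb* rose by 0.89 (SE 0.10, adjusted p = 0.000246 from limma), 1.85-fold, and *Edn3* fell by 0.43 (SE 0.11, adjusted p = 0.0305 from limma), 1.35-fold. The fall of *Edn3* missed the threshold when control pool 1 or 3 or mutant pool 1 or 3 was left out, with adjusted p from 0.0894 to 0.122 and 0.00871 to 0.122 over all its alternatives.

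Of the other endothelin pathway genes, 1 of 4 measured rose and none fell, where 6.59% of all genes rose. That gene was *Edn1*, the endothelin of vessels and mesenchyme, with a change of 0.42 (SE 0.10, adjusted p = 0.0182 from limma), which missed the threshold without control pool 1 or 3 or mutant pool 1 or 3 (adjusted p from 0.0519 to 0.0953). *Ece1*, which cuts endothelins into their active form, had a change of 0.23 (adjusted p = 0.278 from limma). *Ednrb* is also made by cells outside the crest, among them vessels and mesenchyme, whose markers are given below.

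*Fabp7*, a lipid-binding protein of glial precursors, stood at 10.12, 10.43 and 10.33 in control pools and at 9.90, 9.50 and 9.98 in mutant pools. All mutant pools lay below the control pools, by the least in mutant pool 3. The change was -0.50 (SE 0.14, adjusted p = 0.0407 from limma), and it missed the threshold without control pool 2 or 3 or mutant pool 1 or 2 (adjusted p from 0.0708 to 0.12, and 0.0211 to 0.138 over all its alternatives).

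Further genes of the crest and of Schwann cells moved both ways, with 5 of 10 measured risen, 3 fallen and a median change of 0.14. The genes that fell were *Gfra3*, the artemin receptor, with a change of -2.42 (SE 0.10, adjusted p = 3.82e-07 from limma), *Erbb3*, the neuregulin receptor of Schwann cell precursors that epithelia also carry, with -1.29 (SE 0.13, adjusted p = 0.000125 from limma), and *Cdh19*, a cadherin of crest cells and glia, with -0.38. Which cells of the whole pancreas made *Gfra3* was not tested. *Tfap2a* and *Pax3*, transcription factors of early crest cells, rose by 1.61 and 1.17. The other risen genes were *Zeb2*, *Snai2* and *Ets1*, with changes of 0.54, 0.41 and 0.33, which mesenchymal cells or vessels also use. *Ets1* missed the threshold when any 1 of the 6 arrays was left out (adjusted p from 0.0669 to 0.117), *Cdh19* for any but mutant pool 2 (0.0767 to 0.151), and *Snai2* without control pool 1 or 2 or mutant pool 1 (0.0526 to 0.0704).

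**Figure D2:**
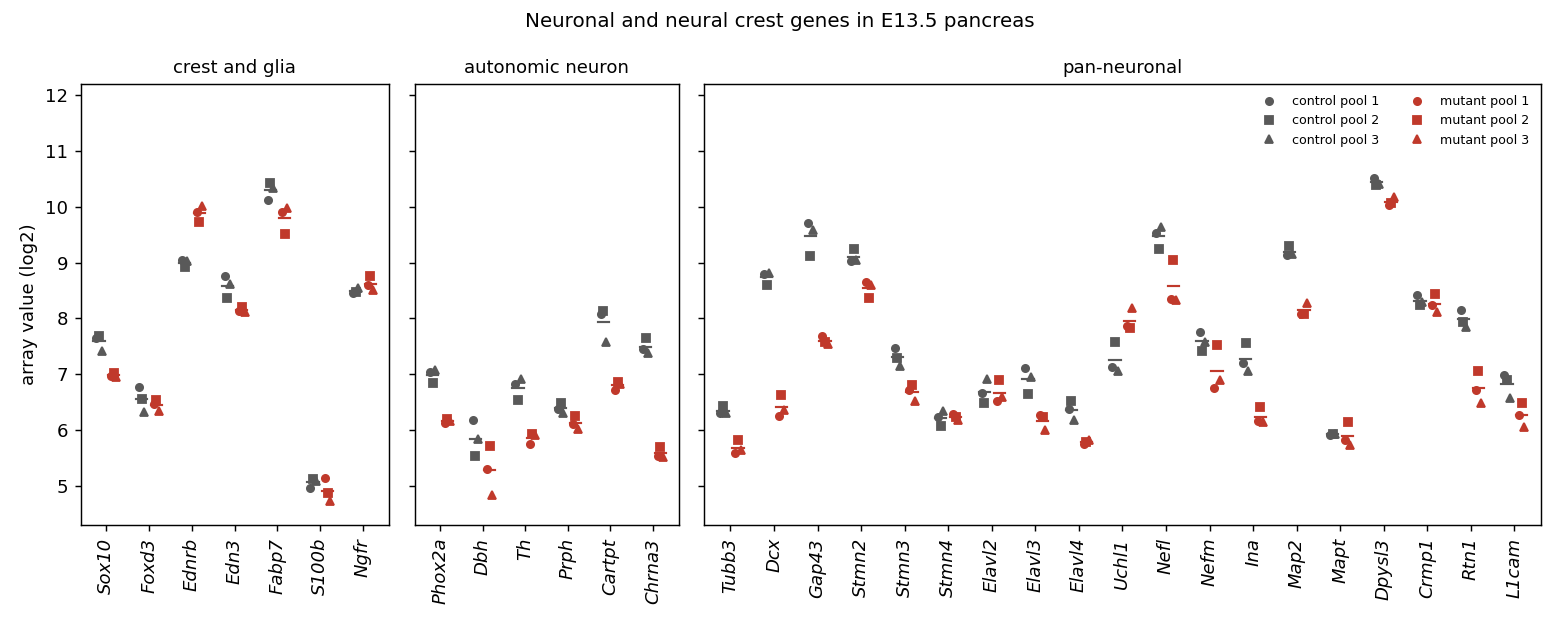
Array value (log2) of each of the 32 genes in each control and mutant pool, with 1 point per pool and genes grouped by role. In the autonomic panel the mutant points of *Chrna3*, between 5.52 and 5.69, lie far below the control points, between 7.37 and 7.64, while in the crest and glia panel *Foxd3*, *S100b* and *Ngfr* overlap.

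Among the autonomic neuron genes the largest change was that of *Chrna3*, the α subunit of the nicotinic receptor of ganglia. It stood at 7.46, 7.64 and 7.37 in control pools and at 5.54, 5.69 and 5.52 in mutant pools. The genotypes were far apart against the spread within each. The gene fell by 1.91 (SE 0.10, adjusted p = 1.62e-06 from limma), 3.75-fold. *Chrna3* lies in the genome between *Chrna5* and *Chrnb4*, which encode partner subunits of the same receptor. *Chrnb4* fell too, by 0.97 (SE 0.14, adjusted p = 0.001 from limma), while *Chrna5* had a change of -0.33 (adjusted p = 0.156 from limma, and 0.0398 without mutant pool 2).

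*Cartpt*, a neuropeptide precursor made by autonomic neurons and by some endocrine cells, stood at 8.08, 8.14 and 7.58 in control pools and at 6.71, 6.87 and 6.82 in mutant pools. The genotypes did not overlap, and control pool 3 was the nearest to the mutant pools. The change was -1.13 (SE 0.14, adjusted p = 0.000491 from limma), 2.19-fold lower.

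*Th*, tyrosine hydroxylase, the rate-limiting enzyme of catecholamine synthesis, stood at 6.82, 6.54 and 6.92 in control pools and at 5.75, 5.93 and 5.91 in mutant pools. Every mutant pool lay well below every control pool. The change was -0.90 (SE 0.12, adjusted p = 0.000548 from limma), 1.86-fold lower. Whether neurons or other cells of the whole pancreas made *Th* was not tested. *Phox2a*, the transcription factor of noradrenergic neurons, stood at 7.04, 6.85 and 7.08 in control pools and at 6.13, 6.20 and 6.16 in mutant pools. Its pools were apart as well, with a change of -0.83 (SE 0.10, adjusted p = 0.000271 from limma), 1.77-fold lower.

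*Th* and *Cartpt* share a feature of sequence that the choice of genes did not use. Of the 32 genes, 24 have a promoter in the RefSeq table used here (mouse assembly GRCm38.p6, 250 bases before to 50 after a start site), and the full cyclic AMP response element TGACGTCA, the letters bound by CREB, is in those of *Th*, *Cartpt* and *Foxd3*, 3 of 24 genes or 12.5%. It is in 1.79% of all 32851 promoters and in 2.03% of all genes with one. The bases before the start site are shown for the pair that fell, with the element in capitals, 5′ to 3′ on the minus strand.
*Th*, chr7:142899996-142900095: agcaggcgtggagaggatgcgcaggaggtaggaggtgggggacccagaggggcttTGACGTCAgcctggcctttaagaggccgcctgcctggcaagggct
*Cartpt*, chr13:99900684-99900803: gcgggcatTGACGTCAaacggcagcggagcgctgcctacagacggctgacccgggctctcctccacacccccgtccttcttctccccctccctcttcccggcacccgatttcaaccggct

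Counted from the start site, with -1 as the base before it, the element begins at -45 in *Th*, at -112 in *Cartpt* and at -233 in *Foxd3*. In *Th* its first letters, TGA, are also the last letters of CTTTGA, the core bound by the TCF/LEF partners of β-catenin, which begins at -48. CTTTGA was found on either strand in 4 of the 24 promoters, those of *Th*, *Edn3*, *Rtn1* and *Stmn3*, or 16.7%, against 18.2% of all genes and 16% of all promoters. The E-box CAGATG, used by proneural factors, was in the promoters of 6 of 24 genes (25%), *Cartpt*, *Elavl4*, *Fabp7*, *L1cam*, *Rtn1* and *Stmn3*, against 19.2% of all genes. CAGCACC, the left part of the element bound by the repressor REST, was in those of *Ednrb* and *Tubb3*, 8.33% against 8.14% of all genes. These are matches of letters in a window, and no binding was measured.

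The remaining autonomic genes did not pass the test. *Dbh*, dopamine β-hydroxylase, which makes noradrenaline from dopamine, stood at 6.18, 5.53 and 5.84 in control pools and at 5.30, 5.71 and 4.83 in mutant pools. Mutant pool 2 lay within the control range and the others below it. The change was -0.57 (SE 0.22, 95% interval from -1.06 to -0.08, adjusted p = 0.133 from limma), and without mutant pool 2 it was -0.78 with an adjusted p of 0.0306 (0.0306 to 0.371 over all its alternatives). *Prph*, peripherin, the intermediate filament of peripheral neurons, stood at 6.37, 6.49 and 6.30 against 6.10, 6.25 and 6.02. Its pools did not overlap, but the change of -0.26 was small (SE 0.10, 95% interval from -0.49 to -0.04, adjusted p = 0.129 from limma).

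Other genes of autonomic and enteric neurons, 17 measured, were split, with 4 fallen, 3 risen and a median change of 0.03. *Ret*, the GDNF receptor kinase, fell by 2.59 (SE 0.09, adjusted p = 1.58e-07 from limma), with values of 8.90 to 9.01 in control pools and 6.32 to 6.48 in mutant pools. Which cells of the whole pancreas made *Ret* was not tested. *Ddc*, the enzyme that follows tyrosine hydroxylase in catecholamine synthesis and is also made by endocrine cells and epithelia, fell by 0.97 (SE 0.10, adjusted p = 0.000118 from limma). *Npy*, the fourth gene that fell beside *Chrnb4*, had a change of -0.58, which missed the threshold when any 1 of the mutant pools was left out (adjusted p from 0.0746 to 0.108). Genes that rose were *Ntrk3*, the neurotrophin 3 receptor, by 1.66 (SE 0.09, adjusted p = 1.56e-06 from limma), *Slc5a7*, the choline transporter of cholinergic neurons, by 1.5 (SE 0.10, adjusted p = 6.39e-06 from limma), and *Gata3*, a transcription factor of sympathetic neurons and other cells, by 0.45, which missed the threshold without control pool 2 or 3 or mutant pool 1 or 3 (adjusted p from 0.0654 to 0.0916). *Gfra1*, the co-receptor of *Ret*, had a change of 0.35 that did not pass (adjusted p = 0.158 from limma).

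Of 8 measured trophic and guidance ligands 3 rose and 2 fell, where 6.59% of all genes rose and 7.53% fell. *Gdnf*, the ligand of Ret, fell by 1.16 (SE 0.12, adjusted p = 0.0001 from limma), and *Ntn1*, a guidance ligand of the gut wall, fell by 0.44 (adjusted p = 0.0132 from limma, and 0.0578 without mutant pool 1). *Sema3a*, which repels growing axons, rose by 0.53, *Bdnf* by 0.46 and *Artn*, the ligand of Gfra3, by 0.45 (adjusted p = 0.0143 from limma, and 0.0516 without mutant pool 3).

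In the pan-neuronal group the genes that fell farthest were *Dcx*, *Gap43* and *Rtn1*. *Dcx*, doublecortin, a microtubule-binding protein of migrating young neurons, stood at 8.80, 8.60 and 8.82 in control pools and at 6.25, 6.64 and 6.37 in mutant pools. No other gene of the 32 had as large a change, -2.32 (SE 0.12, adjusted p = 1.3e-06 from limma), 4.99-fold lower. *Gap43*, a membrane protein of growth cones, stood at 9.71, 9.12 and 9.58 in control pools and at 7.68, 7.57 and 7.54 in mutant pools. The mutant pools lay within a narrow band far below the control pools, and the gene fell by 1.88 (SE 0.14, adjusted p = 1.67e-05 from limma), 3.67-fold.

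*Rtn1*, a reticulon of the endoplasmic reticulum in neurons and neuroendocrine cells, stood at 8.15, 7.94 and 7.85 in control pools and at 6.71, 7.06 and 6.48 in mutant pools. It fell in every mutant pool, least in mutant pool 2, with a change of -1.23 (SE 0.15, adjusted p = 0.000325 from limma), 2.35-fold lower.

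Of the microtubule genes, *Map2*, the microtubule-associated protein of dendrites, stood at 9.14, 9.30 and 9.15 in control pools and at 8.08, 8.08 and 8.27 in mutant pools. The genotypes were well apart, with a change of -1.05 (SE 0.10, adjusted p = 6.48e-05 from limma), 2.07-fold lower. *Tubb3*, the β-tubulin used to stain neurons, stood at 6.31, 6.43 and 6.31 against 5.59, 5.83 and 5.65 and fell by 0.66 (SE 0.10, adjusted p = 0.00125 from limma). In newborn mutants the study found cells stained by the neural antibody Tuj1 within the muscle layer of some large cysts. That is protein at a later age than these arrays. *Mapt*, tau, the microtubule protein of axons, ran from 5.91 to 5.94 in control pools and from 5.73 to 6.16 in mutant pools, which bracketed them. Its change was -0.02 with a 95% interval from -0.29 to 0.24, and at this level it cannot be told whether its probes read transcript above background.

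Stathmins take microtubules apart, and 3 of them were measured. *Stmn2*, of growth cones, stood at 9.04, 9.24 and 9.04 in control pools and at 8.66, 8.36 and 8.60 in mutant pools, and fell by 0.56 (SE 0.11, adjusted p = 0.00656 from limma). *Stmn3* stood at 7.47, 7.29 and 7.15 against 6.72, 6.80 and 6.52 and fell by 0.62 (SE 0.12, adjusted p = 0.0048 from limma). In both genes the genotypes were apart. A second array row of *Stmn3*, with values of 4.05 to 4.56, had a change of 0.05, and the mean of both rows missed the threshold (-0.29, adjusted p = 0.137 from limma, and 0.00277 to 0.137 over all alternatives). *Stmn4*, with values of 6.07 to 6.35, had a change of 0.01 with a 95% interval from -0.21 to 0.24, and its genotypes overlapped. Whether these *Stmn4* probes and the second row of *Stmn3* read transcript above background cannot be told.

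Of the neuronal RNA-binding proteins of the Elav family, which mark post-mitotic neurons, *Elavl3* and *Elavl4* fell. *Elavl3* stood at 7.12, 6.65 and 6.96 in control pools and at 6.28, 6.23 and 6.0 in mutant pools (change -0.74, SE 0.13, adjusted p = 0.00398 from limma). *Elavl4* stood at 6.37, 6.53 and 6.18 against 5.75, 5.78 and 5.83 (change -0.57, SE 0.11, adjusted p = 0.00472 from limma). Neither gene overlapped between the genotypes. *Elavl2* did overlap, with values of 6.48 to 6.92 in control pools and 6.52 to 6.90 in mutant pools, and its change was -0.02 with a 95% interval from -0.33 to 0.29.

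The neurofilament genes, which give axons their calibre, showed a split within mutant pools. *Ina*, α-internexin, stood at 7.21, 7.57 and 7.06 in control pools and at 6.17, 6.41 and 6.15 in mutant pools, and fell by 1.03 (SE 0.14, adjusted p = 0.000649 from limma), 2.05-fold. A second row of *Ina* had a change of -0.89. *Nefl*, the light chain, stood at 9.52, 9.25 and 9.64 against 8.35, 9.05 and 8.33. Mutant pool 2 lay just below the control pools and the other mutant pools far below. The change was -0.89 (SE 0.19, adjusted p = 0.00983 from limma).

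*Nefm*, the medium chain, whose gene is the neighbour of *Nefl*, stood at 7.76, 7.41 and 7.59 in control pools and at 6.76, 7.53 and 6.90 in mutant pools. Mutant pool 2 lay among the control pools and the other mutant pools below them. The change was -0.53 (SE 0.19, 95% interval from -0.94 to -0.11, adjusted p = 0.0987 from limma), and without mutant pool 2 it was -0.76 with an adjusted p of 0.00347 (0.00347 to 0.311 over all its alternatives). *Nefh*, the heavy chain, followed with values of 6.81, 7.04 and 6.68 in mutant pools against 7.24, 7.10 and 7.12, and its adjusted p was 0.103 with all pools and 0.0279 without mutant pool 2.

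**Figure D3:**
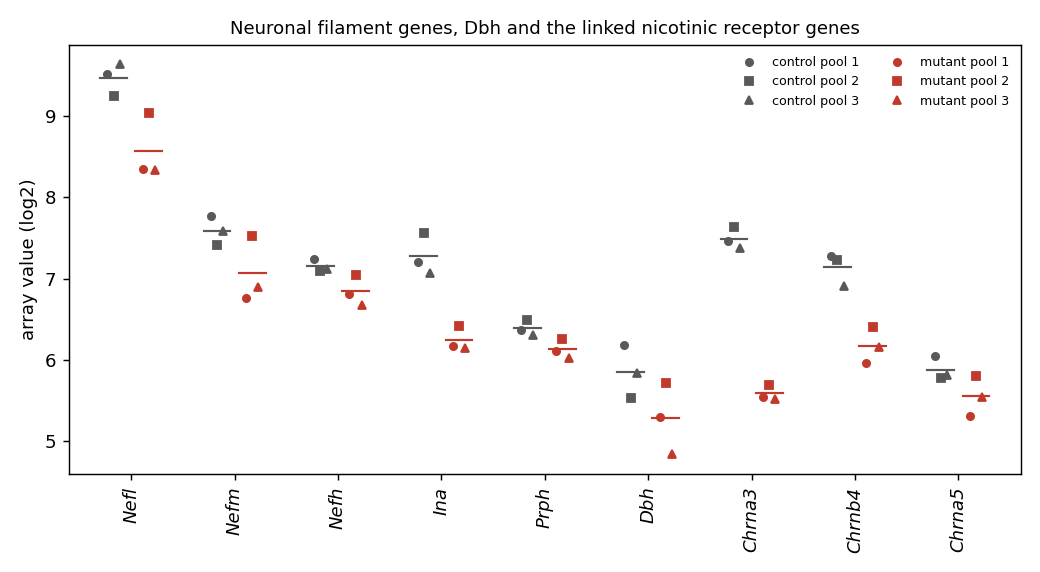
Array value (log2) in each pool of the neuronal filament genes, *Dbh* and the neighbouring nicotinic receptor genes *Chrna5*, *Chrna3* and *Chrnb4*, with 1 point per pool. Mutant pool 2 lies above the other mutant pools, at 9.05 for *Nefl* against 8.35 and 8.33 and at 7.53 for *Nefm* against 6.76 and 6.90.

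The remaining pan-neuronal genes were those of axon guidance and adhesion and a ubiquitin hydrolase. *Dpysl3*, a collapsin response mediator that passes on semaphorin signals, stood at 10.51, 10.38 and 10.41 in control pools and at 10.02, 10.06 and 10.17 in mutant pools, and fell by 0.35 (SE 0.09, adjusted p = 0.0299 from limma), 1.27-fold. It missed the threshold without control pool 1 or 3 or mutant pool 1 or 2, with adjusted p from 0.0597 to 0.138 (0.0134 to 0.138 over all its alternatives). Its paralog *Crmp1* overlapped between the genotypes, with values of 8.24 to 8.42 and 8.11 to 8.43 and a change of -0.05 (95% interval from -0.30 to 0.19).

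*L1cam*, an adhesion molecule of axons and migrating crest cells, stood at 6.99, 6.90 and 6.58 in control pools and at 6.28, 6.49 and 6.06 in mutant pools. The nearest pools of the genotypes, control pool 3 and mutant pool 2, were close. The change was -0.55 (SE 0.14, adjusted p = 0.0269 from limma), and it missed the threshold without control pool 1 or 2 or mutant pool 1 or 3 (adjusted p from 0.0789 to 0.109, and 0.0137 to 0.109 over all its alternatives).

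*Uchl1*, the ubiquitin hydrolase also known as PGP9.5 and used to stain nerves and islets, was the pan-neuronal gene that rose. It stood at 7.12, 7.58 and 7.06 in control pools and at 7.86, 7.83 and 8.19 in mutant pools. Control pool 2 lay closest to the mutant pools, below all of them. The change was 0.71 (SE 0.15, adjusted p = 0.0123 from limma), 1.63-fold higher. Without control pool 1 or control pool 3 it missed the threshold, with adjusted p of 0.0556 and 0.0566 (0.00278 to 0.0699 over all its alternatives).

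The pools of one genotype did not always rank alike. Mutant pool 2 was the highest of the mutant pools in 21 of the 32 genes (65.6%), in 6 of 6 autonomic genes, 11 of 19 pan-neuronal genes and 4 of 7 crest and glia genes, against 38.9% of all genes. Mutant pool 3 was the lowest in 18 of 32 (56.2%), against 37.9% of all genes. The median difference from the control mean over the 32 genes was -0.57, -0.46 and -0.66 in mutant pools 1, 2 and 3, and it lay between -0.02 and 0.05 in control pools.

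Over the crest and glia genes these medians were -0.08, -0.18 and -0.31 in mutant pools and 0.04, 0.00 and 0.04 in control pools. Over the autonomic genes they were -0.94, -0.81 and -0.93. Over the pan-neuronal genes they were -0.61, -0.50 and -0.70. The crest and glia medians cover genes that rose, fell and did not pass, from *Ednrb* at 0.89 to *Sox10* at -0.61. The spread between pools was like that of other genes or somewhat larger, with a median SD over the 32 genes of 0.16 in the control and 0.14 in mutant pools against 0.11 and 0.12 over all genes.

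**Figure D4:**
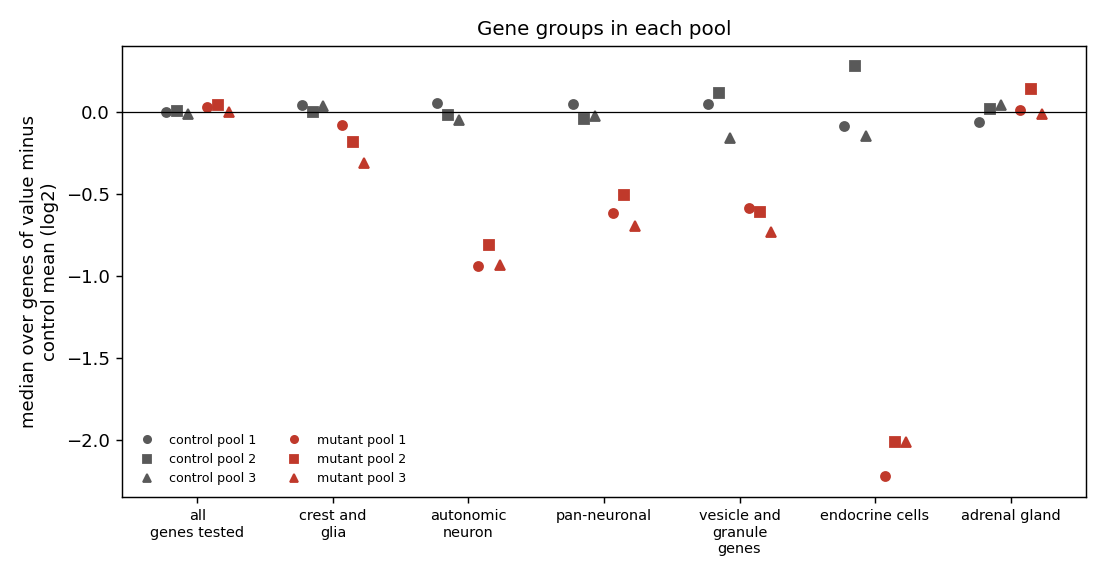
Median over the genes of a group of each pool's value minus the control mean (log2), with 1 point per pool, for the crest and glia, autonomic and pan-neuronal genes, for the gene lists they are set beside and for all genes tested. The 3 mutant pools lie between -0.08 and -0.31 for crest and glia genes, between -0.50 and -0.70 for pan-neuronal genes and between -2.01 and -2.22 for endocrine genes.

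Genes that neurons share with endocrine cells, and genes of endocrine cells themselves, were set beside the pan-neuronal group. Of 19 measured genes of synaptic vesicles and secretory granules 13 fell and none rose by limma (1 was higher at an unadjusted p under 0.05), with a median change of -0.73. The farthest to fall were the granule genes *Chgb*, *Scg3*, *Pcsk1* and *Chga*, with changes of -3.72, -3.17, -2.83 and -2.81. Of 16 measured genes of endocrine cells 14 fell, with a median change of -2.06. The changes were -4.61 for *Neurog3*, -3.99 for *Neurod1*, -3.16 for *Nkx2-2*, -2.89 for *Pax4* and -1.37 for *Insm1*. *Isl1*, which neurons and mesenchyme also make, was the endocrine list's gene that rose, by 0.49, and *Sst* did not pass (change -0.34, adjusted p = 0.336 from limma). *Isl1* missed the threshold without control pool 1 or 3 or mutant pool 1 or 3 (adjusted p from 0.0842 to 0.0976).

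Among the control pools, control pool 2 held the highest value of 14 of 16 endocrine genes (87.5%) and of 11 of 19 vesicle and granule genes, against 38.8% of all genes. It held the highest value of 7 of 19 pan-neuronal genes (36.8%) and of 3 of 6 autonomic genes.

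Of 6 repressors of neuronal genes 1 fell and none rose, where 7.53% of all genes fell. The gene that fell was *Rcor2*, a partner of REST, with a change of -0.63 (SE 0.09, adjusted p = 0.00113 from limma).

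Markers of other cells in the dissected tissue moved with the genotype too. Of 9 pancreatic epithelium genes 8 fell, with changes of -4.16 for *Pdx1*, -3.86 for *Cpa1*, -2.51 for *Nkx6-1* and -2.30 for *Ptf1a*. All 8 genes of gut mesenchyme and smooth muscle rose, with a median change of 1.72, *Foxf2* by 4.01 and *Foxf1* by 3.54. Their 8 log2 values added up to 58.83 to 59.81 in control pools and 74.04 to 77.0 in mutant pools. Such a sum of log2 values is not the log2 of a summed level. Over 5 mesothelium genes the log2 values added up to 40.82 to 41.72 in control pools and 37.72 to 39.3 in mutant pools. Of these 5 genes 4 fell. Among these, *Wt1* (change -0.52) missed the threshold without any 1 of the control pools or without mutant pool 1 (adjusted p from 0.0673 to 0.0928), and *Upk3b* (change -0.51) did so for any pool but mutant pool 3 (0.0565 to 0.119). Of 6 endothelium genes 1 rose, where 6.59% of all genes did. That gene, *Cdh5*, rose by 0.32 and missed the threshold when any 1 array was left out (adjusted p from 0.0561 to 0.153). Of 6 blood genes none passed the limma test, and 1, *Ptprc*, did so at an unadjusted p under 0.05 (change 0.20).

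Adrenal tissue, whose medulla makes catecholamines, was looked for because it carries *Th*, *Dbh* and *Phox2a*. None of its 7 genes passed the limma test, and 1 of 7, *Cyp21a1*, did so at an unadjusted p under 0.05 (change 0.27). The log2 values of the 7 genes added up to 35.18 to 35.81 in control pools and 35.49 to 36.87 in mutant pools, where mutant pool 2 was the highest. The part of any of these cell types in the changes of the 32 genes was not tested.

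The genotype was checked on 4 Wnt target genes, and all 4 rose, *Axin2* by 1.47, *Lef1* by 0.82, *Nkd1* by 2.50 and *Sp5* by 2.83, and *Ctnnb1* itself had a change of 0.28 (adjusted p = 0.148 from limma), which cannot show the loss of exon 3 as its probes are summed over the transcript. Correlations over all genes were 0.9931 to 0.9968 between arrays of one genotype and 0.9731 to 0.9786 between genotypes, and array medians lay between 6.37 and 6.47.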

How the data were processed

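Expression was measured in 3 control and 3 mutant pools, each of 3 E13.5 pancreata, on Affymetrix Mouse Gene 1.0 ST arrays. The authors deposited log2 expression values, 1 row per transcript cluster. The sources used here do not give how background was corrected or how probes were summarized and normalized. Detection calls and probe signals were not used. The precision therefore rests on the number of arrays and on limma's variance prior, which is drawn from all genes in the fit.

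Of 35556 rows, 21789 carried 1 gene symbol, 1621 several and 12146 none. Rows with 1 symbol were kept, with the row of highest mean for the 999 genes with several rows. Of these rows, 21698 matched RefSeq genes of GRCm38.p6 by Entrez identifier, which changed 0 symbols. None of the 32 genes was on a row shared with another symbol. Promoters came from RefSeq on the same assembly, while the build behind the array's design was not used; protein sequences were not used here.

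Mutant was compared with control in R 4.3.3 by lmFit and eBayes of limma 3.58.1 without covariates, with Benjamini-Hochberg adjustment over 19938 genes and a threshold of 0.05. The step was tested on simulated data. An exact permutation test of 3 pools against 3 cannot go below p = 0.1, so none was used. The 32 genes and all lists were chosen with earlier results of these data known. Lists are therefore given as counts, some with a median, and shares over all genes are for scale. No list was tested. Named beside the 32 genes were *Ctnnb1* and its targets, up to 4 genes per list with the largest change past the test (the gene with the smallest p where none passed) and a set of enteric crest and endocrine genes. The genes *Chrnb4*, *Chrna5*, *Nefh*, *Zeb2*, *Snai2*, *Ets1*, *Cdh19*, *Gata3*, *Npy*, *Ntn1*, *Isl1* and *Sst* were named after their values were seen. Alternatives were a replicate block, each array left out, 3 scalings, filters on dim genes, other rows per gene, all rows in the fit, a trended robust prior and an unadjusted threshold. Tables and figures were made with Python 3.11.15, pandas 2.3.3 and matplotlib 3.10.9.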

Additional observations from a re-analysis of the deposited data

How the results depend on the processing

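Of the 22 genes past the test, 15 passed in all of the 15 alternatives at an adjusted p that tested them, 7 missed it in at least 1 (*Edn3*, *Fabp7*, *Stmn3*, *Uchl1*, *Nefl*, *Dpysl3* and *L1cam*) and 0 turned direction; 17 passed with each array left out in turn. Of the 10 others, *Dbh* and *Nefm* passed in 1 of these alternatives, without mutant pool 2, and *Dbh*, *Nefm* and *Prph* at an unadjusted p under 0.05. With 3 pools a genotype and a median SD near 0.15, small changes of single genes are at the limit of the design.

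With genes above the median level alone, 16 of the 32 genes were tested, 11 of them fell (1 autonomic, 7 pan-neuronal), and the medians were -0.43 for crest and glia, -0.73 for pan-neuronal genes and -1.13 for autonomic genes, the last being *Cartpt* alone; 5 further crest, 2 further autonomic, 7 vesicle, 0 endothelin and 3 ligand genes passed. Replicate numbers did not pair the pools (correlations of same-numbered pools were 0.01, -0.15 and -0.05). With the replicate block 17 of the 32 fell and 2 rose, 1 crest and glia gene fell and 0 endothelin genes passed, with *Edn3*, *Fabp7* and *Dpysl3* lost. With all rows in the fit, 15 of the 32 fell and 1 rose, 1 crest and glia gene fell, and 5 further crest, 0 endothelin and 3 ligand genes passed; over all genes 1028 fell and 751 rose, against 1502 and 1313. At an unadjusted p under 0.05, 2386 of all genes were lower and 2695 higher. The split of risen and fallen genes was 1667 and 1375 centred on array medians, 1418 and 1332 centred on housekeeping genes and 1525 and 1616 after quantile normalization, with 2 risen and 19, 19 and 20 fallen of the 32.

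With each array left out in turn, 16 to 20 of the 32 fell (16 without mutant pool 1) and 1 to 2 rose (1 without control pool 1 or 3). Of the crest and glia genes 1 to 2 fell, with 1 without control pool 3 or mutant pool 1. The crest and glia median ran from -0.26 (without mutant pool 1) to -0.055 (without mutant pool 3), the autonomic median from -0.954 to -0.801 and the pan-neuronal median from -0.685 to -0.57, and 5 to 7 further crest and 0 to 1 endothelin genes passed. Genes near 0 changed sign: with an array left out, *Foxd3* ran from -0.21 to 0.02, *Stmn4* from -0.059 to 0.078, *Elavl2* from -0.14 to 0.10, *Mapt* from -0.15 to 0.065 and *Crmp1* from -0.14 to 0.02. *Elavl2* was 0.018, 0.0052 and 0.025 and *Mapt* 0.016 and 0.0034 when centred on array medians, on housekeeping genes and, for *Elavl2*, after quantile normalization. None of these passed the test. The causes were not tested.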
